A study of Mus musculus with 18 samples.

Results

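The guanylate-binding proteins (GBPs) are large GTPases that cells make in response to interferon, and above all to interferon-gamma. They assemble on the membranes of vacuoles that hold pathogens and on bacteria in the cytosol, where they break membranes open and help to start inflammasome signaling. Their genes are transcribed after transcription factors activated by interferon, IRF1 among them, have bound the promoters. In tumors they are used as readouts of interferon exposure, and both tumor cells and infiltrating immune cells can express them.

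The 8 genes described here, Gbp2, Gbp3, Gbp4, Gbp5, Gbp6, Gbp7, Gbp8 and Gbp9, were taken by name from a table of 41079 mouse genes measured by RNA sequencing in 18 B16F10 tumors. All 8 were found in the table. B16F10 is an established melanoma line of C57BL/6 mice, grown here under the skin of female mice with a working immune system. Injections into the tumor began at day 6, at a volume near 50 mm3, were repeated every 2 days, and the tissue was taken 48 h after the last one. The 6 groups had 3 tumors each. PBS received buffer. Free PS473 received PS473, a pistol ribozyme (a small RNA that cuts RNA) built to cleave the mRNA of PD-L1 (Cd274), with no carrier. PS473@CPs received the same ribozyme on cationic polymers. NKMOF-101-[Mn] received a manganese metal-organic framework alone. M5@NKMOF-101-[Mn] received the framework loaded with M5, a mutant ribozyme without cleavage activity. PS473@NKMOF-101-[Mn] received the framework loaded with PS473. The titles of the last group carry the number 102 in place of 101 in the framework's name, while its treatment text gives 101, and it is called PS473@NKMOF-101-[Mn] here. Whole tumors were sequenced, so fewer cells of a type and less RNA per cell cannot be told apart. The cells were injected into 1 flank of each mouse, and the p-values measure the spread between these tumors.

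Levels are FPKM, which scale fragments to the gene length deposited with the values and to the depth of the library. The tumors held between 17211000 and 28400000 fragments assigned to genes, a depth recovered from the steps between low values. Markers of the melanocyte lineage summed to between 4835 and 7645 FPKM in all 18 tumors. Markers of skin epithelium ranged from 1.86 to 3875 FPKM in sum between tumors. Cd274, the ribozyme's target, averaged 16.5 ± 4.64 FPKM (SD, n = 3) in PBS and 12.7 ± 1.21 in Free PS473. It averaged 16.3 ± 7.10 in PS473@CPs and 14.9 ± 0.945 with the empty framework. The framework averaged 23.7 ± 3.94 when loaded with M5 and 19.9 ± 11.9 when loaded with PS473. The difference in Cd274 between the framework with PS473 and the framework with M5 was -0.39 on the log2(FPKM + 1) scale (95% confidence interval -1.11 to 0.33, limma adjusted p = 1), so a lower target mRNA with the active ribozyme was not shown.

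Mouse GBP genes sit in a pair of clusters. Gbp2, Gbp3, Gbp5 and Gbp7 lie in the cluster on chromosome 3, and Gbp4, Gbp6, Gbp8 and Gbp9 lie together in the other cluster. The promoter windows of the chromosome 3 members are shown because they carry the sequences through which interferon-activated factors are known to act. RefSeq windows (GRCm38.p6, plus strand, 250 bases before to 50 bases after the start) were matched for 4 of the 8 members. The capitals mark the interferon-stimulated response element (ISRE) core, which is GAAA, any 2 bases and GAAA and which all of these windows carry on the minus strand, so that it reads TTTC, any 2 bases and TTTC. They also mark the interferon-gamma activated site (GAS), TTCNNNGAA, which reads the same on both strands. The windows are Gbp2 at chr3:142620413-142620712, Gbp3 at chr3:142559794-142560093, Gbp5 at chr3:142496684-142496983 and Gbp7 at chr3:142530086-142530385.
Gbp2: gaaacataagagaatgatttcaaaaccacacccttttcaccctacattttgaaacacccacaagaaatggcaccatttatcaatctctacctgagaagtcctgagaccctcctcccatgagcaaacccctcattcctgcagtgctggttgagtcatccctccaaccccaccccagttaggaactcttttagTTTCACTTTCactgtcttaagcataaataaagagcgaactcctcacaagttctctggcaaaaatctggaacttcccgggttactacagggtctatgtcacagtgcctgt
Gbp3: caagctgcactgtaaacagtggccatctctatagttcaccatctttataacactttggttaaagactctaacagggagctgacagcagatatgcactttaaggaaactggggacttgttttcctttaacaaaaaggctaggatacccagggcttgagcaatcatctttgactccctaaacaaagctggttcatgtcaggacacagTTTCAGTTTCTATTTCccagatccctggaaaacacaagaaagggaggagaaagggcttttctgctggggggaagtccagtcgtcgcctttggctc
Gbp5: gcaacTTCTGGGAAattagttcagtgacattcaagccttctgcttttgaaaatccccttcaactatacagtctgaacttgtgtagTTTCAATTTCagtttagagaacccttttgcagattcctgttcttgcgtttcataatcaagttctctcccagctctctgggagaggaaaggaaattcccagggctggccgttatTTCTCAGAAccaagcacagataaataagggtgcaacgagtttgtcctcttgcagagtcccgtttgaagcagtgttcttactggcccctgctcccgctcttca
Gbp7: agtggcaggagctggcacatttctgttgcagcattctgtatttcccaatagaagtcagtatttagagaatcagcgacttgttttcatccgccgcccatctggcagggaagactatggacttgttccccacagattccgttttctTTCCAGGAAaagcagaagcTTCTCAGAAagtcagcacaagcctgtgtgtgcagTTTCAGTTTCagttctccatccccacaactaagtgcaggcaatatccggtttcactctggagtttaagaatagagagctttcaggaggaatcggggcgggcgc

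The ISRE core was present in the windows of 4 of these 4 members, against 3.44% of all 32851 promoter windows of the same length. In Gbp2 it was TTTCACTTTC, 59 bases before the start. In Gbp7 it was TTTCAGTTTC, 53 bases before the start. Gbp3 held the same TTTCAGTTTC at 45 bases and an overlapping TTTCTATTTC at 39 bases, while a second Gbp3 window, from a start a little downstream, held neither motif. In Gbp5 the core was TTTCAATTTC, farther out at 165 bases. The GAS motif was present in 2 members, against 8.3% of all windows. Gbp5 held TTCTGGGAA at 245 bases and TTCTCAGAA at 52 bases before the start, and Gbp7 held TTCCAGGAA at 106 bases and TTCTCAGAA at 87 bases. Gbp5 and Gbp7 therefore carried both motifs, as did 0.454% of all windows. A match of letters is a description and not a measured binding site. Gbp4, Gbp6, Gbp8 and Gbp9 had no entry among the windows.

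**Figure D1:**
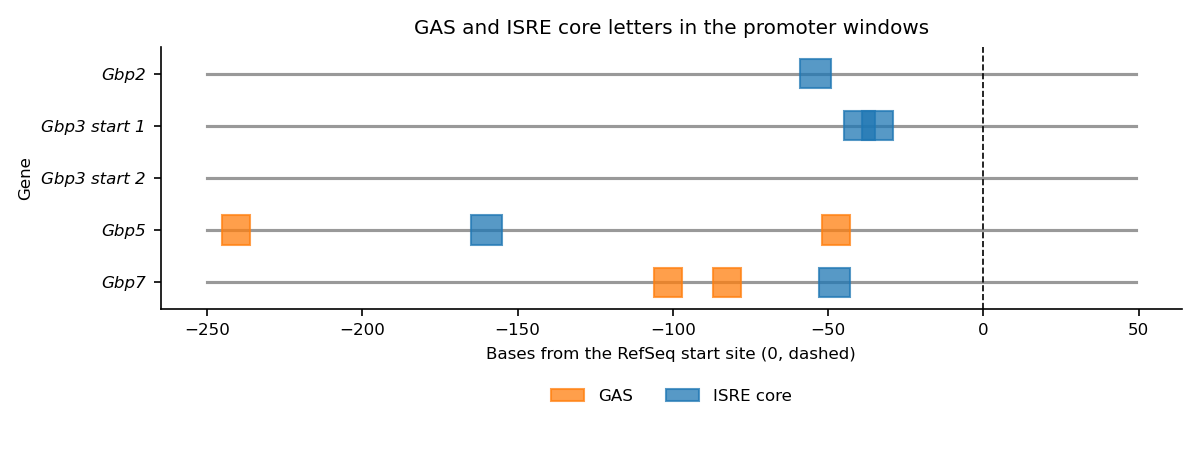
Positions of the ISRE core and GAS motifs in the promoter windows of Gbp2, Gbp3, Gbp5 and Gbp7, in bases from the start of the transcript (x axis), with each window on its own line. The ISRE core begins between 39 and 59 bases before the start in Gbp2, Gbp3 and Gbp7 and begins at 165 bases in Gbp5, GAS motifs appear in Gbp5 and Gbp7, and the second Gbp3 window is empty.

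Gbp2, whose protein carries a lipid anchor and is recruited to pathogen vacuoles, had the highest level of the 8, with a mean of 44.5 FPKM over the 18 tumors. The next were Gbp7, a member linked to assembly of the phagocyte NADPH oxidase, at 16.3 FPKM, and Gbp3 at 11.2 FPKM. Gbp6 and Gbp4 followed at 8.62 and 8.59 FPKM, and the sequence of this pair cannot be separated at this spread between tumors. Gbp5, a lipid-anchored member known as an activator of the NLRP3 inflammasome, averaged 3.45 FPKM, Gbp9 1.32 FPKM and Gbp8 0.703 FPKM. Gbp8 was the 1 member under the filter of a mean of 1 FPKM, so 7 of the 8 entered the test across genes. The fragments behind each value ranged from 426 to 6124 for Gbp2, while the tumor with the fewest had 15.5 for Gbp8. Gbp9 had 87.5 to 1343 fragments and Gbp5 28 to 615.5, yet Gbp9 had the lower FPKM. The gene length used was 14738 bases for Gbp9, whose GENCODE transcript has 4381, and 3021 bases for Gbp5. The order of the members and the filter on Gbp8 therefore depend on the lengths used.

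In PBS tumors Gbp2 was at 39.5, 33.4 and 29.99 FPKM. In Free PS473 it was at 8.64, 12.7 and 39.8 FPKM, so 2 tumors fell far under the PBS range and 1 lay at its top. The PS473@CPs tumors were at 20.0, 55.3 and 65.2 FPKM and the NKMOF-101-[Mn] tumors at 44.2, 32.7 and 59.1 FPKM. M5@NKMOF-101-[Mn] gave 43.4, 65.8 and 56.1 FPKM, all above every PBS tumor. PS473@NKMOF-101-[Mn] gave 45.1, 118.7 and 31.1 FPKM, which holds the highest tumor of the whole series beside one inside the PBS range. The group means were 34.3 ± 4.80 FPKM in PBS, 20.4 ± 17.0 in Free PS473, 46.9 ± 23.8 in PS473@CPs, 45.3 ± 13.2 in NKMOF-101-[Mn], 55.1 ± 11.2 in M5@NKMOF-101-[Mn], and 65.0 ± 47.1 where PS473 was on the framework (SD, n = 3 each).

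Gbp7 followed the same arrangement at a lower level. Its PBS tumors were at 14.3, 12.0 and 13.2 FPKM and its Free PS473 tumors at 4.70, 4.72 and 10.4 FPKM, so here every Free PS473 tumor lay under every PBS tumor. In PS473@CPs it was at 9.75, 13.6 and 22.3 FPKM and in NKMOF-101-[Mn] at 18.5, 11.0 and 21.7 FPKM. M5@NKMOF-101-[Mn] gave 17.4, 24.6 and 20.2 FPKM, again above all PBS tumors, and PS473@NKMOF-101-[Mn] gave 18.8, 47.5 and 9.50 FPKM.

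Gbp5 was at 2.24, 2.37 and 2.58 FPKM in PBS, the narrowest spread among its groups, and at 0.461, 0.607 and 2.43 FPKM in Free PS473. It was at 1.47, 6.85 and 5.04 FPKM in PS473@CPs and at 4.38, 2.90 and 3.67 FPKM in NKMOF-101-[Mn]. This was the 1 member for which every tumor with the empty framework lay above every PBS tumor. M5@NKMOF-101-[Mn] gave 3.15, 4.92 and 3.80 FPKM, whereas the 3 values under PS473@NKMOF-101-[Mn] were 3.25, 9.69 and 2.19 FPKM.

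Gbp4 showed the widest span of the members, with the highest tumor 34.9 times the lowest. It was at 7.17, 5.27 and 6.64 FPKM in PBS and at 0.940, 2.00 and 4.99 FPKM in Free PS473. M5@NKMOF-101-[Mn] gave 7.98, 14.0 and 11.4 FPKM, while PS473@NKMOF-101-[Mn] gave 8.31, 32.8 and 3.19 FPKM, so 1 tumor of the last group was under all PBS tumors and another was several-fold above them. It ranged from 3.28 to 12.2 FPKM in PS473@CPs and from 6.31 to 9.78 FPKM in NKMOF-101-[Mn].

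Gbp3 averaged 7.93 ± 1.48 FPKM in PBS, 4.61 ± 3.29 in Free PS473, 12.9 ± 5.85 in PS473@CPs, 10.5 ± 2.33 in NKMOF-101-[Mn], 13.0 ± 0.953 in M5@NKMOF-101-[Mn], and 18.3 ± 15.3 where PS473 was on the framework. Gbp6 averaged 6.93 ± 2.72, 3.25 ± 2.04, 8.38 ± 4.43, 8.13 ± 3.01, 11.8 ± 1.94 and 13.3 ± 10.3 FPKM in the same groups and sequence. Gbp9 averaged 0.973 ± 0.0633, 0.496 ± 0.375, 1.62 ± 0.895, 1.14 ± 0.321, 1.62 ± 0.0846 and 2.04 ± 2.01 FPKM. For Gbp3 and Gbp9 the tumors given M5 lay close together and those given PS473 on the framework were spread over a wide range. How far the reads of Gbp6 are uncertain depends on the annotation behind the FPKM values, which is not given. In GENCODE, 82.9% of the 100-base runs of its transcript also occur in another gene, Gm43302. That share was 10.2% for Gbp7, under 5% for Gbp8, Gbp4, Gbp9 and Gbp3, and 0% for Gbp2 and Gbp5.

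Gbp8, the lowest member, averaged 0.556 ± 0.125 FPKM in PBS, 0.274 ± 0.233 in Free PS473, 0.874 ± 0.347 in PS473@CPs, 0.851 ± 0.323 in NKMOF-101-[Mn], 0.809 ± 0.105 in M5@NKMOF-101-[Mn], and 0.854 ± 0.986 where PS473 was on the framework. It was the 1 member whose highest group mean was not that of PS473@NKMOF-101-[Mn]. Its highest 4 group means differed by far less than the spread between tumors.

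**Figure D2:**
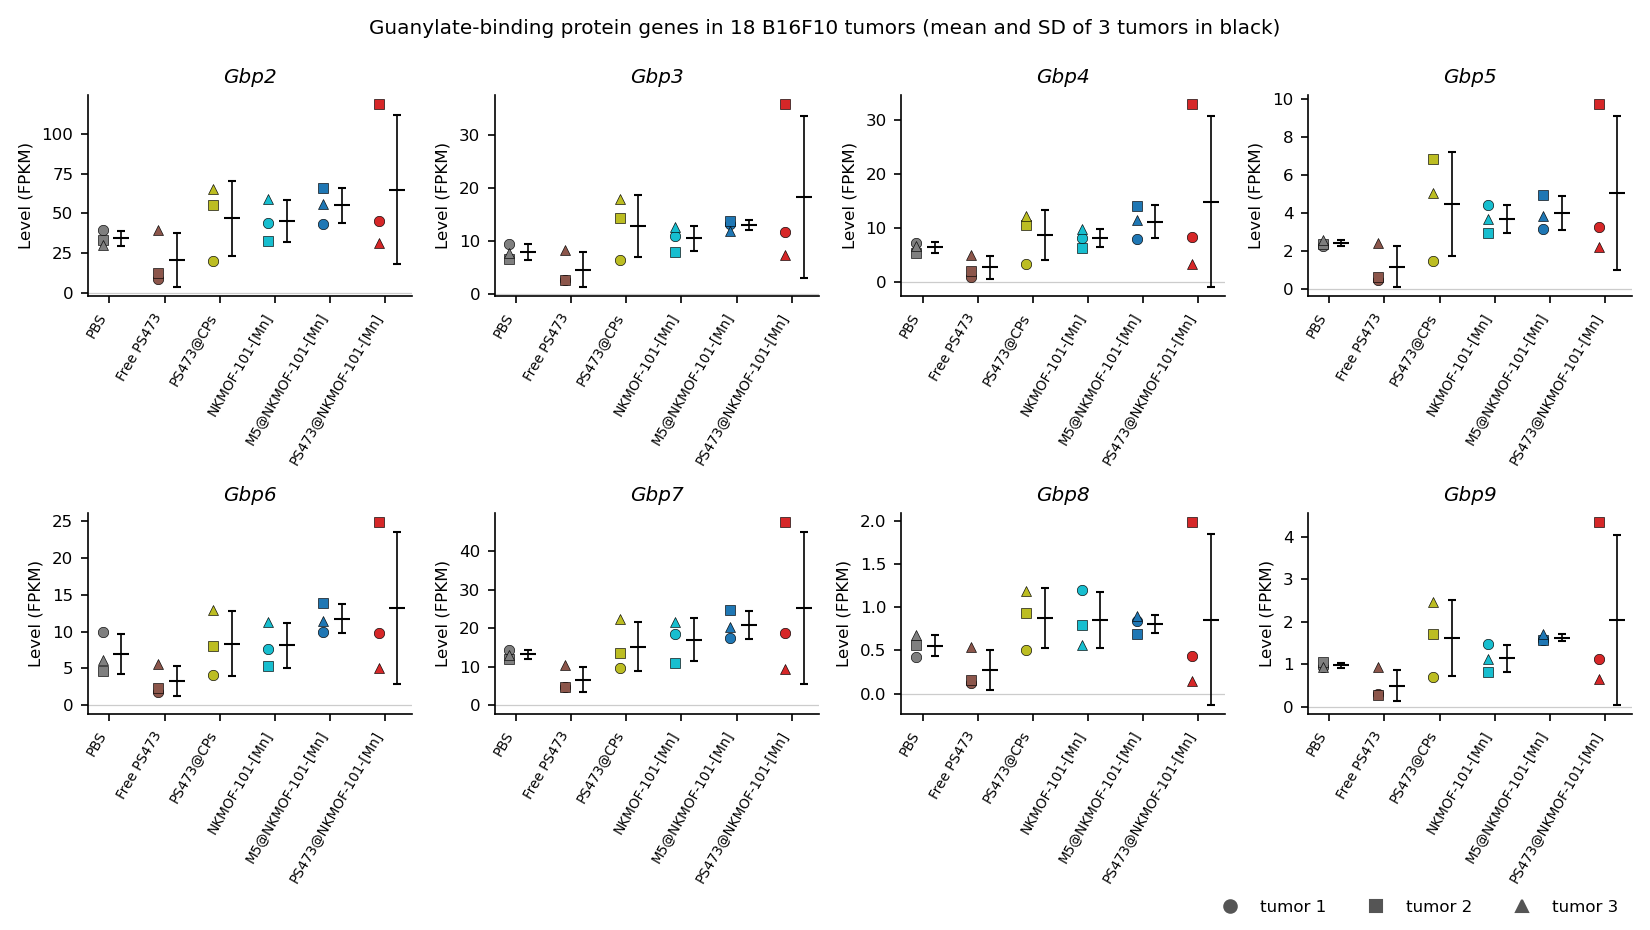
FPKM of each of the 8 GBP genes (y axis, linear) in every tumor of the 6 groups (x axis), with a point for each tumor and, in black, the mean and SD of the group. The 3 M5@NKMOF-101-[Mn] tumors sit above the 3 PBS tumors in each panel, and PS473@NKMOF-101-[Mn] tumor 2 is the highest point of each panel.

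The members took their group differences from the same tumors. PS473@NKMOF-101-[Mn] tumor 2 was the highest of the 18 tumors for all 8 members. Free PS473 tumor 1 was the lowest for 7 members and Free PS473 tumor 2 for the remaining one, Gbp9. Summed over the 8 members, the levels were 84.1, 66.0 and 67.8 FPKM in the PBS tumors and 19.7, 25.5 and 73.1 FPKM in the Free PS473 tumors. The sums were 46.3, 111.3 and 139.2 FPKM in PS473@CPs, 96.5, 67.9 and 119.9 FPKM in NKMOF-101-[Mn] and 97.6, 139.2 and 117.5 FPKM in M5@NKMOF-101-[Mn]. The tumors of PS473@NKMOF-101-[Mn] gave 98.5, 275.6 and 59.3 FPKM, ranks 7, 1 and 15 of the 18, so this group spanned nearly the whole range of the series. The group ordering by mean sum was Free PS473, PBS, NKMOF-101-[Mn], PS473@CPs, then the framework with M5 and the framework with PS473, with PS473@CPs at 98.9 ± 47.7 and NKMOF-101-[Mn] at 94.8 ± 26.0 FPKM, a gap far smaller than either spread.

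Across the 18 tumors the log2(FPKM + 1) levels of the 7 tested members correlated in every one of the 21 pairs, with Pearson r between 0.89 and 0.97 and a median of 0.95. The median r of all genes tested with the members was -0.03. After the group means were subtracted, r still ranged from 0.84 to 0.95, so the members also moved together between tumors of the same group. The pairs within the chromosome 3 cluster had a median r of 0.95 and the pairs between the clusters a median of 0.96, so being in the same cluster gave no closer relation in these tumors. These values describe 18 points that share libraries, depth and cell composition. The differences between groups accounted for 39.6% (Gbp9) to 54.3% (Gbp7) of the variance of the members, against a median of 23.3% over all genes tested.

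**Figure D3:**
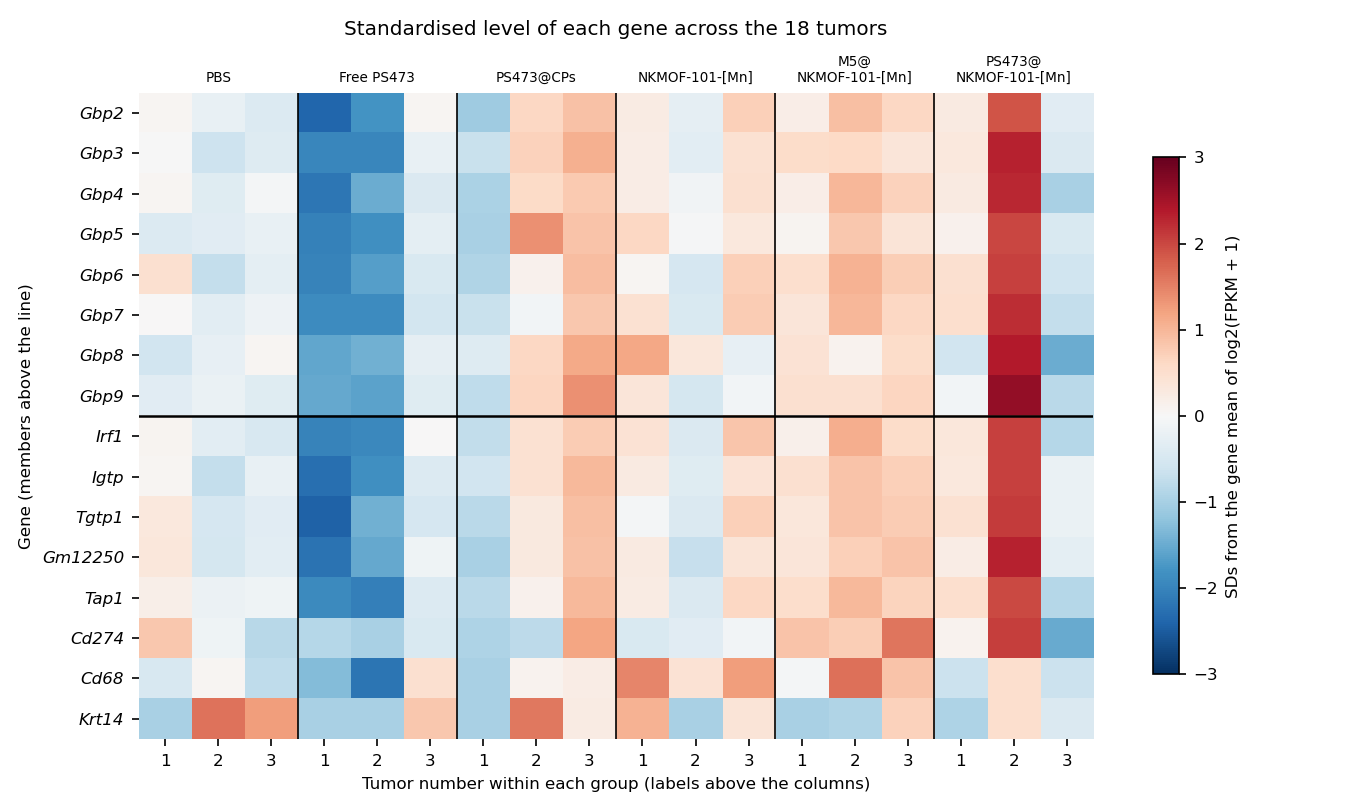
Heat map of the 8 GBP genes and, under the line, 8 other named genes (vertical axis) in the 18 tumors (horizontal axis, by group), with color for the SDs by which log2(FPKM + 1) lies from the gene's mean. Among the GBP genes most columns have one color, with Free PS473 tumors 1 and 2 the lowest and PS473@NKMOF-101-[Mn] tumor 2 the highest.

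Whether the framework carrying the active ribozyme changed GBP expression was asked against each other group. The fit covered the genes that averaged 1 FPKM or more, with limma on log2(FPKM + 1) values, and a gene was called at a Benjamini-Hochberg adjusted p under 0.05. No member was called in any of the 15 pairs of groups, in the contrast of the framework groups with the others, or in the test for any difference among the 6 groups. The background was the same, with 0% of the 12357 genes tested called in each of them. When limma weighted the tumors by their spread, a fit with a convergence warning that gave Free PS473 tumor 1 a weight of 17.2, 7 of 7 members were called in PS473@NKMOF-101-[Mn] versus Free PS473, and 6 with gene-by-gene weights. The share of all genes called under either set of weights is not reported here, so these counts do not set the members apart. At an unadjusted p under 0.05, which carries no correction for the number of genes, the count in PS473@NKMOF-101-[Mn] versus Free PS473 was 7 of 7 members higher, where 2.11% of all genes tested were higher. The fold changes below are on the log2(FPKM + 1) scale, which understates the change of the low members Gbp5 and Gbp9.

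Against Free PS473, Gbp2 in PS473@NKMOF-101-[Mn] had a log2 fold change of 1.68 (SE 0.55, adjusted p = 0.792). The largest was that of Gbp4, at 1.75 (SE 0.61), and the smallest that of Gbp9, at 0.86 (SE 0.35). Gbp7 had the smallest p of the members, with a log2 fold change of 1.59 (SE 0.45, adjusted p = 0.781). The tumors nevertheless overlapped for every member, since 0 of 8 had all PS473@NKMOF-101-[Mn] tumors above all Free PS473 tumors, while 2.34% of genes tested did. Without PS473@NKMOF-101-[Mn] tumor 2 the median log2 fold change of the members went from 1.59 to 1.00, and 3 of 7 stayed at an unadjusted p under 0.05.

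Free PS473 was itself the lowest group, which sets the size of every contrast made with it. Relative to PBS its log2 fold changes ran from -1.16 (Gbp4) to -0.43 (Gbp9), with a median of -0.95 and adjusted p of 1.00 for each. Without Free PS473 tumor 1 the median was -0.58, and it reached -1.31 without Free PS473 tumor 3. Gbp7 alone passed an unadjusted p under 0.05, where 0.55% of all genes tested were lower, and the count was 6 without Free PS473 tumor 3, 4 and 3 without PS473@NKMOF-101-[Mn] tumors 2 and 3, and 0 or 1 without any other tumor. Every Free PS473 tumor lay under every PBS tumor for 3 of 8 members, Gbp4, Gbp7 and Gbp9, against 1.54% of genes. The third Free PS473 tumor stood apart from its 2 companions, with Gbp2 at 39.8 FPKM against 8.64 and 12.7.

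Against PBS, PS473@NKMOF-101-[Mn] had log2 fold changes between 0.43 (Gbp9) and 0.83 (Gbp3, SE 0.48, adjusted p = 0.993), and the 95% confidence interval of each included 0. None of the 8 members had all 3 tumors above PBS, while 2.74% of genes did. When PS473@NKMOF-101-[Mn] tumor 2 was left out, the median went from 0.63 to 0.09 and Gbp4 and Gbp9 turned to -0.23 and -0.074. Against PS473@CPs, the polymer carrier of the same ribozyme, the median log2 fold change was 0.35, and it was -0.33 without that tumor. Against the empty framework the median was 0.32, with a range over members of 0.19 to 0.47, and the median was -0.23 without that tumor.

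The inactive control addressed whether the ribozyme's cleavage mattered. Loaded with PS473 rather than M5, the framework differed by 0.02 for Gbp2 (95% confidence interval -1.15 to 1.19), 0.17 for Gbp3 (-0.85 to 1.19), -0.11 for Gbp4 (-1.41 to 1.19), 0.00 for Gbp7 (-0.96 to 0.97) and 0.02 for Gbp9 (-0.72 to 0.76) on the log2 scale, with an adjusted p of 1 for each. The intervals allow a difference of about 2-fold in either direction for Gbp2, so the active and inactive ribozymes were not shown to act alike. The median difference over the members was 0.02, and it was -0.52 without PS473@NKMOF-101-[Mn] tumor 2 and 0.46 without tumor 3 of that group. The active and inactive groups differed in spread, with sums of 97.6 to 139.2 FPKM for M5 and 59.3 to 275.6 FPKM for PS473, though with 3 tumors each this was not tested.

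M5@NKMOF-101-[Mn] gave the most even elevation of the members. All 8 had every tumor of this group above every PBS tumor, where 4.75% of the genes that entered the test did (Gbp8 is not among them), and above every Free PS473 tumor, where 5.36% did. The fold changes against PBS were moderate, from 0.41 (Gbp9) to 0.73 (Gbp6, SE 0.49), with an adjusted p of 0.999 for each. Against Free PS473, 7 of 7 members were higher at an unadjusted p under 0.05, in a background of 2.95%, with log2 fold changes of 1.66 for Gbp2, 1.86 for Gbp4, 1.68 for Gbp6 and 1.58 for Gbp7 (SE 0.45, adjusted p = 0.604). Without Free PS473 tumor 1 that count was 4. With tumor weights 7 were called after adjustment, in a fit whose share of all genes called is not reported here. The 2 contrasts that share the Free PS473 tumors are set side by side and are not independent. Since the members move together, the 8 do not count as 8 separate observations.

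The empty framework, NKMOF-101-[Mn], was above Free PS473 at an unadjusted p under 0.05 for 6 of 7 members, in a background of 2.05%, with log2 fold changes between 0.53 (Gbp9) and 1.46 (Gbp4). The count was 1 without any single one of Free PS473 tumors 1 and 2 and NKMOF-101-[Mn] tumors 1 and 3. Its tumors lay above every Free PS473 tumor for 4 of 8 members, Gbp4, Gbp5, Gbp7 and Gbp8, against 3.99% of genes, and above every PBS tumor for 1, Gbp5, against 4.52%. Loading with M5 gave every tumor above the empty framework's for 1 member, Gbp9, against 4.47%. PS473@CPs was above Free PS473 at an unadjusted p under 0.05 for 7 of 7 members, in a background of 1.59%, with a median log2 fold change of 1.29 and an adjusted p of 1.00 for each. That count was 0 without Free PS473 tumor 1, 1 without Free PS473 tumor 2, 2 without PS473@CPs tumor 2 and 1 without PS473@CPs tumor 3.

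When the 9 tumors that received the framework were set against the other 9, the members had log2 fold changes from 0.34 (Gbp9) to 0.83 (Gbp4). Gbp7 stood at 0.79 (SE 0.26, adjusted p = 0.900). At an unadjusted p under 0.05, 6 of 7 members were higher, in a background of 2.93%, and the count was 3 without Free PS473 tumor 1, 2 without PS473@CPs tumor 1 and 3 without tumor 2 of the group given PS473 on the framework. In the test for any difference among the 6 groups, Gbp3, Gbp6 and Gbp7 passed an unadjusted p under 0.05, against 1.99% of genes. The difference that PS473 made on the framework less the difference it made without a carrier had log2 values of 0.75 (Gbp9) to 1.46 (Gbp4), with a median of 1.28 and adjusted p of 1.00, and the median was 0.66 without PS473@NKMOF-101-[Mn] tumor 2. Gbp8, under the filter, was compared by an exact permutation test that cannot go below p = 0.1 with 3 tumors against 3. That smallest value was reached for M5@NKMOF-101-[Mn] versus PBS, a log2(FPKM + 1) difference of 0.22, and versus Free PS473, a difference of 0.52, and for NKMOF-101-[Mn] versus Free PS473, a difference of 0.54. The exact permutation p was 0.6 for PS473@NKMOF-101-[Mn] versus Free PS473.

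**Figure D4:**
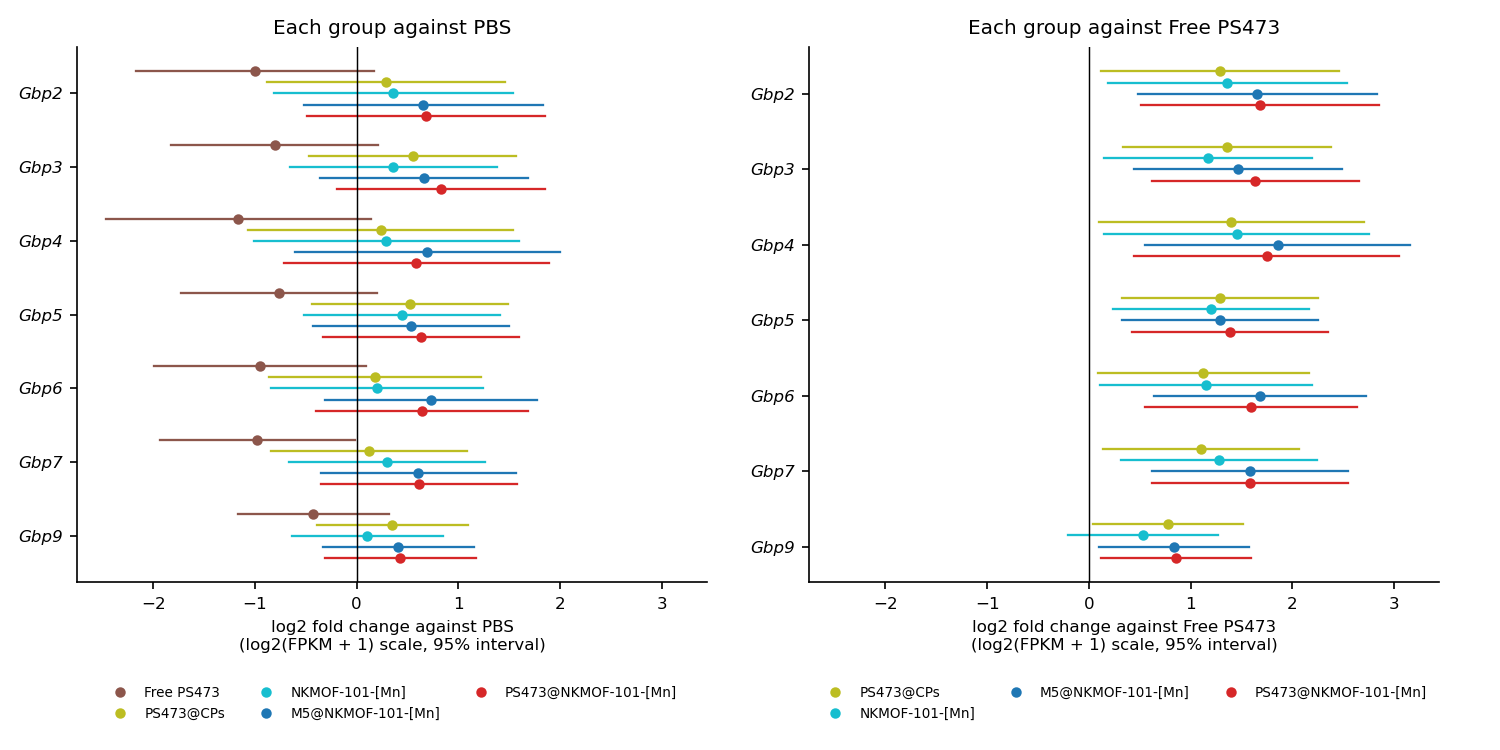
Log2(FPKM + 1) fold changes (x axis) of the 7 tested GBP genes (y axis) in each group against PBS (left) and against Free PS473 (right), with points for the limma estimate and lines for the unadjusted 95% confidence interval. The estimates of the 4 groups against Free PS473 lie to the right of 0, those of Free PS473 against PBS lie to the left, and no member passed an adjusted p under 0.05.

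The genes whose pattern over the 18 tumors was most like the members, by the median Pearson r with the 7 tested members, were Irf1 (0.97), Igtp, Tap1, Gm12250, Gm4841, Iigp1c, Tgtp1, Iigp1, Gm40158 and Tap2 (0.95). Irf1 encodes the transcription factor named above, Tap1 and Tap2 the transporter that loads peptides for MHC class I, and Igtp, Tgtp1 and Iigp1 are immunity-related GTPases, another interferon-inducible family that acts at pathogen vacuoles. Gbp10 ranked 53 at 0.89 and Cd274 159 at 0.77. Ifngr1, the ligand-binding chain of the interferon-gamma receptor, stood at 0.25, and Ifngr2 at -0.06.

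The other genes of the pathway divided by role. Ifng, the ligand, was below the filter, between 0.0809 FPKM in PS473@NKMOF-101-[Mn] tumor 3 and 1.38 FPKM in tumor 2 of the same group, the tumor highest for the GBPs. The receptor and kinase genes Ifngr1, Ifngr2, Jak1 and Jak2 did not pass an unadjusted p under 0.05 versus Free PS473 in the framework loaded with PS473 or with M5. The transcription factor gene Irf1 passed it in both, with log2 fold changes of 1.01 in the first and 1.07 in the second. Of the 6 tested type I interferon signaling genes 2 passed it in each contrast, Irf7 at 1.68 and 1.34 and Irf9, which encodes another interferon-activated transcription factor, at 0.78 and 0.68. Over all genes tested, 2.11% and 2.95% were higher at an unadjusted p under 0.05 in these contrasts. No gene of these lists passed an adjusted p under 0.05.

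All 8 immunity-related GTPases of the list passed an unadjusted p under 0.05 upward in both contrasts, with medians of 1.86 and 1.81. They also passed it in the contrast of framework groups with the others, against 2.93% of genes, with a median of 0.85. Their median Pearson r with the GBP members ran from 0.92 (Irgm1) to 0.96 (Igtp), so they do not count as separate observations. Igtp had 1.94 and 1.91 and Tgtp1 2.07 and 1.95 in the contrasts with Free PS473. The median over all genes tested was -0.04 in both. Of the 3 further mouse GBP genes, Gbp10 was above the filter, with 1.41 (SE 0.47, adjusted p = 0.805) and 1.33. In GENCODE it shares 70.9% of its transcript runs with other genes, and 70.0% with Gm43302. Gbp2b reached at most 0.276 FPKM and Gbp11 2.00 FPKM, both in PS473@NKMOF-101-[Mn] tumor 2.

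Genes that act on or after the GBPs came next. None of the 5 tested prenylation enzymes, which attach the lipid anchor, passed an unadjusted p under 0.05 in these contrasts, nor did any of the 5 ATG conjugation genes needed to bring GBPs to vacuoles. The 3 atlastins, GTPases of the endoplasmic reticulum related to GBPs, did not pass it either. The 5 tested inflammasome genes were all higher than in Free PS473 in both contrasts, with medians of 0.43 for the framework with PS473 and 0.68 for the framework with M5. Of these, Gsdmd, the pore-forming protein of pyroptosis, passed it versus Free PS473 with 0.55 for the framework with PS473 and 0.68 for the framework with M5. Pycard, the inflammasome adaptor, passed it in the second contrast alone, at 0.72, and the difference between these contrasts was -0.34 (95% confidence interval -0.85 to 0.18).

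Markers of immune cells moved with some of these values. The summed level of 7 T cell markers was 2.92, 3.44 and 4.90 FPKM in PBS and 0.714, 0.799 and 3.65 FPKM in Free PS473, where the same 2 tumors were low as for the GBPs. It was 2.83, 8.67 and 6.58 FPKM in PS473@CPs, 8.54, 6.63 and 4.17 FPKM in NKMOF-101-[Mn] and 5.23, 5.52 and 4.63 FPKM in M5@NKMOF-101-[Mn]. It was 2.64, 12.2 and 3.87 FPKM in PS473@NKMOF-101-[Mn], with the highest value in the tumor highest for the GBPs. Of the T cell markers, 2 of 7 passed the filter and Cd3d was at 0 in 1 tumor. The NK cell markers summed to 0.129 to 4.10 FPKM, with Ncr1, Klrb1c, Klrd1 and Gzma each at 0 in 1 tumor.

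The 7 macrophage markers, all above the filter, summed to 109 to 180 FPKM in PBS, 51.1 to 265 FPKM in Free PS473, 125 to 190 FPKM in PS473@CPs and 206 to 366 FPKM in NKMOF-101-[Mn]. They summed to 149 to 310 FPKM with M5 on the framework and to 103 to 212 FPKM with PS473 on it, whose high tumor held 212 FPKM, inside the range of other groups. The median Pearson r with the members was 0.81 for Trac, the constant region of the T cell receptor alpha chain, and 0.73 for Cd3g, the T cell markers above the filter. Among the macrophage markers it was 0.69 for Cd68, 0.58 to 0.64 for C1qa, C1qb and C1qc, 0.44 for Csf1r, 0.39 for Adgre1 and -0.087 for Mrc1. The order differed by rank, where the median Spearman rho was 0.54 for Trac, 0.71 for Cd3g and 0.70 for Cd68. By rank it was 0.54 to 0.57 for the C1q genes, 0.38 for Csf1r, 0.39 for Adgre1 and -0.12 for Mrc1. The skin epithelium markers were at 1.86, 2.56 and 334 FPKM in the Free PS473 tumors and at 2.53, 303 and 14.4 FPKM in PS473@NKMOF-101-[Mn], so in these groups the tumor highest for the GBPs was also the one with the most skin RNA. In the other 4 groups it was not, with skin sums of 2.92 FPKM in PBS tumor 1 against 3588 in tumor 2, 96.6 in PS473@CPs tumor 3 against 3875 in tumor 2, 95.6 in NKMOF-101-[Mn] tumor 3 against 1020.0 in tumor 1, and 2.43 in M5@NKMOF-101-[Mn] tumor 2 against 384 in tumor 3. With the skin marker level as a covariate no member was called in any contrast, and 2 of 7 stayed at an unadjusted p under 0.05 in PS473@CPs versus Free PS473. Itgax, the 1 dendritic cell marker above the filter, had a median Pearson r of 0.84 with the members and a median Spearman rho of 0.79. Among the other marker lists, the sums over tumors ran from 1.86 to 4.95 FPKM for dendritic cells, 0.356 to 462 FPKM for neutrophils and 4.57 to 55.5 FPKM for endothelium. They ran from 28.3 to 642 FPKM for fibroblasts, 2.04 to 41.9 FPKM for skeletal muscle and 4.93 to 56.6 FPKM for adipocytes, and Krt14 was at 0 in 5 tumors. The part of the immune cell markers in the GBP differences was not tested.

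**Figure D5:**
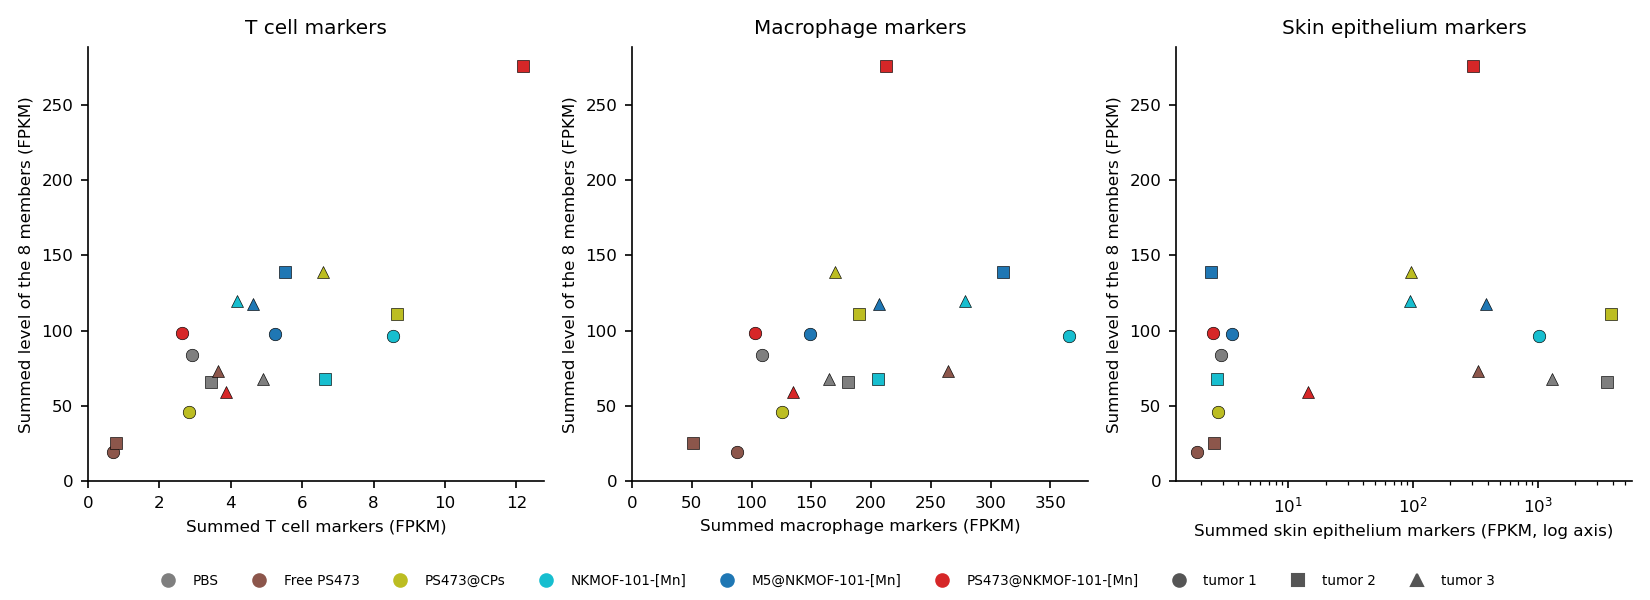
Summed FPKM of the 8 GBP genes (y axis) against the summed FPKM of T cell markers, of macrophage markers and of skin epithelium markers (x axes, the last on a log scale), with a point for each of the 18 tumors colored by group. PS473@NKMOF-101-[Mn] tumor 2, at 275.6 FPKM of GBPs, has the highest T cell marker sum, 12.2 FPKM, and Free PS473 tumors 1 and 2 have the lowest GBP, T cell and macrophage sums.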

How the data were processed

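RNA from 18 B16F10 tumors was sequenced after oligo(dT) enrichment. The authors deposited 1 table of FPKM values per gene and tumor, and no covariate or batch is given. The submitters' processing notes name GRCm39; the aligner, counter and annotation are not given in the sources used here, and neither is strand, so overlapping genes cannot be told apart. The values were used as deposited. In R 4.3.3, limma 3.58.1 was fitted to log2(FPKM + 1) with 1 mean per group and a trend in the prior variance, over the 12357 of 41079 genes that averaged 1 FPKM or more, and p-values were adjusted by Benjamini-Hochberg over all of them in each comparison. Figures and summaries used Python 3.11.15.

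The 8 members, the gene lists and the markers were chosen with earlier results of these data known. The genes named are the members, the other mouse GBP genes, the genes of the lists and the 10 genes with the highest median Pearson r with the tested members. The lists cover GBPs, immunity-related GTPases, interferon signaling, prenylation, ATG conjugation, inflammasomes, atlastins and cell markers. Depth was recovered from gene length and the steps between low values, of which 98.1 to 98.9% were multiples of 0.25 fragments and 46.3 to 50.5% were whole, so depth may be off by a constant factor. No 2 tumors shared more than 0.817% of their values. The scripts were tested on simulated data. Other pseudocounts, filters, scalings, weights, a replicate block, a skin covariate, the fit of recovered fragments with voom, fits of the compared groups alone and each tumor left out in turn were tried as alternatives. The contrast of PS473 with and without the framework, the gene-by-gene weights and the repeats of the counts without overlap were added after seeing the data. Promoter windows came from RefSeq (GRCm38.p6), whose build differs from that of the files, and shared transcript runs from GENCODE transcripts. Protein sequences were not analysed here, and some genes of the lists are not reported here.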

Additional observations from a re-analysis of the deposited data

How the results depend on the processing

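No member passed an adjusted p under 0.05 in any comparison under another pseudocount, filter, scaling or prior, recovered fragments with voom, the skin covariate, fits of the compared groups alone, or with each tumor left out in turn (0 to 0 members), and the lowest adjusted p in all of these was 0.18. Weights changed that. With limma array weights, whose iterations gave a convergence warning and set the weight of Free PS473 tumor 1 at 17.2 against 0.206 to 2.34 for the others, 7 members were called in each of the 4 groups with a carrier versus Free PS473 and in the test for any difference, and 6 in Free PS473 versus PBS. Gene-by-gene weights, added after seeing the data and at 3.90 for that tumor, called 6 members in PS473@NKMOF-101-[Mn] and 6 in NKMOF-101-[Mn] versus Free PS473, 7 in M5@NKMOF-101-[Mn] versus Free PS473, 4 in the test for any difference and 0 in each other comparison.

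The replicate numbers did not pair the tumors throughout, since 18 of 45 same-numbered pairs had a correlation of deviations over 0.1 (10 of 15 for number 1, 4 of 15 for number 2 and 4 of 15 for number 3) and 4 of 18 tumors matched best with their own number. The median correlation was 0.31 for number 1, -0.16 for number 2 and -0.02 for number 3. Whether the tumors of number 1 were handled together is not given and was not tested. With the replicate block 0 members were called, and 0 passed an unadjusted p under 0.05 in Free PS473 versus PBS. Against PBS, leaving out tumor 2 of PS473@NKMOF-101-[Mn] reversed the log2 fold change to -0.23 for Gbp4 and -0.074 for Gbp9, and the highest values with a tumor of that group left out were 1.28 and 0.77. All 8 members had every M5@NKMOF-101-[Mn] tumor above every PBS and Free PS473 tumor. Leaving a tumor out cannot lower such a count, so those repeats (8 to 8) test nothing. Under upper-quartile scaling and quantile normalization the count stayed 8 against Free PS473 and was 7 to 8 against PBS.

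Members at an unadjusted p under 0.05 versus Free PS473 depended on single tumors. In PS473@CPs they went from 7 to 0 without Free PS473 tumor 1, 1 without Free PS473 tumor 2, 2 without PS473@CPs tumor 2 and 1 without PS473@CPs tumor 3. In NKMOF-101-[Mn] they went from 6 to 1 without Free PS473 tumor 1 or 2 or NKMOF-101-[Mn] tumor 1 or 3, and in M5@NKMOF-101-[Mn] from 7 to 4 without Free PS473 tumor 1. For the framework groups they went from 6 to 2 when PS473@CPs tumor 1 was left out and to 3 when either Free PS473 tumor 1 or tumor 2 of PS473@NKMOF-101-[Mn] was left out. In Free PS473 versus PBS they ranged from 0 to 6 with a tumor left out, and were 3 with a pseudocount of 0.1. The cause was not tested. Depth limits Gbp8 most.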

Other observations

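The makeup of the GBP level also varied between tumors. Gbp2 held between 43.1 and 54.5% of the summed FPKM of the 8 members in every tumor, with a median of 47.1%. Gbp4 held 4.78% of the sum in Free PS473 tumor 1, the lowest tumor, and 11.9% in PS473@NKMOF-101-[Mn] tumor 2, the highest, while Gbp7 held 23.9% in the first of these and 17.2% in the second. PS473@NKMOF-101-[Mn] tumor 3, at 59.3 FPKM in sum, had Gbp4 at 5.39% and Gbp2 at 52.5%. These shares are values of single tumors, with counting error and no replicates, and they depend on the gene lengths used.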
